A study of Mus musculus with 24 samples.

Results

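The CCN family was followed at the transcript level in 5 mouse fibroblast lines. Its members on the array were taken as every probe set whose platform symbol is Ccn followed by a number. The rule found 5 genes of 8251 with a single symbol (Ccn1, Ccn2, Ccn3, Ccn4 and Ccn5), each with 1 probe set. RNA was measured on 24 arrays in 12 groups of 2. Tunicamycin at 2 ug/ml was given to wild-type, ATF4-/- and PERK-/- cells, each also measured untreated, for 6 h in wild-type and ATF4-/- cells and for a time the labels do not give in PERK-/- cells. The other 12 arrays came from cells expressing Fv2E-PERK, a chimera whose kinase is switched on by the dimerizer AP20187. They received no drug, or AP20187 for 4 h or 8 h (the labels write its dose as 2 nm). The SS line carried wild-type eIF2alpha on a PERK-/- background, chosen by the submitters because clones with a high level of the transgene could not otherwise be obtained. The AA line carried mutant eIF2alpha, and the labels do not say whether it also lacked PERK. Each genotype is represented by 1 line, so genotype and line cannot be told apart.

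CCN proteins are secreted, cysteine-rich matricellular proteins that bind integrins and heparan sulphate proteoglycans at the cell surface and modulate adhesion, migration and growth factor signalling. Ccn1 (Cyr61) and Ccn2 (Ctgf, connective tissue growth factor) are immediate early genes that respond to serum, TGF-beta and the YAP/TEAD pathway. Ccn3 (Nov) is often regulated oppositely to them, and Ccn4 (Wisp1) and Ccn5 (Wisp2) were named as genes induced by Wnt1. CCN5 lacks the C-terminal cystine knot domain that the other members share. The study asked how the integrated stress response alters gene expression. In that response PERK phosphorylates eIF2alpha, which lowers general translation and raises synthesis of the transcription factor ATF4, and tunicamycin triggers it by blocking N-linked glycosylation and stressing the endoplasmic reticulum.

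The promoter of Ccn1 is shown because its transcript moved in several comparisons and Ccn1 is the 1 member of 5 matched in the RefSeq promoter table. It is the 250 bases before the start site in GRCm38.p6, chr3:145649986-145650235, minus strand, written 5′ to 3′, with capitals for the matches to searched motifs.
Ccn1: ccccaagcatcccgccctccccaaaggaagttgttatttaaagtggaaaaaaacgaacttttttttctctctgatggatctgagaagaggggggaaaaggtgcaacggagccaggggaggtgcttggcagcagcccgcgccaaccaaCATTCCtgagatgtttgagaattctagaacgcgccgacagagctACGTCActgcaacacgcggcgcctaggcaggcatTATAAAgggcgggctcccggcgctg
The first capitals are a match to the TEAD core (CATTCC, or GGAATG on the other strand) that begins 103 bases before the start. This motif occurs in 12.6% of 32851 promoters of the same length. The next are a partial cyclic AMP response element (ACGTCA or TGACGT) that begins 59 bases before the start, a motif held by 6.47% of promoters. The last are a TATA motif (TATAAA or TTTATA) that begins 25 bases before the start, held by 12.4%. Neither the full cyclic AMP response element TGACGTCA (1.55% of promoters), nor the SRF CArG box (1.47%), nor the C/EBP-ATF response element (3.44%) had a match on either strand in this window. The 3 motifs found do not overlap, and a match describes letters, not binding.

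Every value below is relative to the median that a probe set has across all 24 arrays, so levels of different genes cannot be set against each other. Values bottom out at 0.01, here the floor. Between 22.6% and 25.6% of values on a tunicamycin array were at it, against 0.00801% to 0.104% for an Fv2E-PERK array, and levels were compared only within each of these sets. Paired arrays of one group correlated at 0.711 to 0.785 for tunicamycin and at 0.675 to 0.932 for Fv2E-PERK, with the lowest value in AA cells at 8 h. No depth can be given for arrays, and their number limits the precision. Nothing in the labels makes the paired arrays separate cultures, so p-values measure only the spread between arrays, which may be technical. As a check of the labels, Atf4, the gene disrupted in ATF4-/- cells, was at 0.133 to 0.170 on the 4 ATF4-/- arrays and at 0.745 and 0.770 in untreated wild-type cells. Eif2ak3, which encodes PERK, was at 0.398 and 0.241 in untreated PERK-/- cells and at 1.91 and 0.0222 in untreated wild-type cells, and its probe set may lie outside the deleted part, in which case it checks nothing. All 10 fibroblast markers were on the array and 8 of them were never at the floor. Of 18 markers of epithelial, endothelial, blood and smooth muscle cells, 9 were never at the floor on the tunicamycin arrays, among them Cdh1, Kdr, Cd68, Cd14 and Hba-a1, 8 were at it on some of these arrays, and Krt19 was at it on all 12. On the Fv2E-PERK arrays none of the 18 was at the floor.

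Of the 5 genes, Ccn1, Ccn4 and Ccn5 were never at the floor and entered the test over all 24 arrays, in which 7369 probe sets were compared on the log2(ratio + 0.247) scale with limma. Both sets share 1 spread per probe set there, although paired tunicamycin arrays mostly correlated less, so standard errors may be too small for tunicamycin comparisons. Over 24 arrays 368 probe sets were called for untreated PERK-/- against wild-type cells, and 121 in the smaller fit of the tunicamycin arrays alone. For untreated ATF4-/- cells the counts were 64 and 7. Ccn2 was at the floor on 1 array. For the tunicamycin comparisons it was tested in a looser fit, also of all 24 arrays, that allowed up to 6 floor values (9658 probe sets). Ccn3 was at the floor on 11 of 12 tunicamycin arrays and has no test there. On the Fv2E-PERK arrays, Ccn2 and Ccn3 were tested in a fit of those 12 arrays alone (12384 probe sets). Folds are ratios of group means on the deposited scale. Log2 differences, given with their standard error, understate changes in low values because of the pseudocount. A gene was called where the Benjamini-Hochberg adjusted p over all probe sets of its fit was under 0.05.

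**Figure D1:**
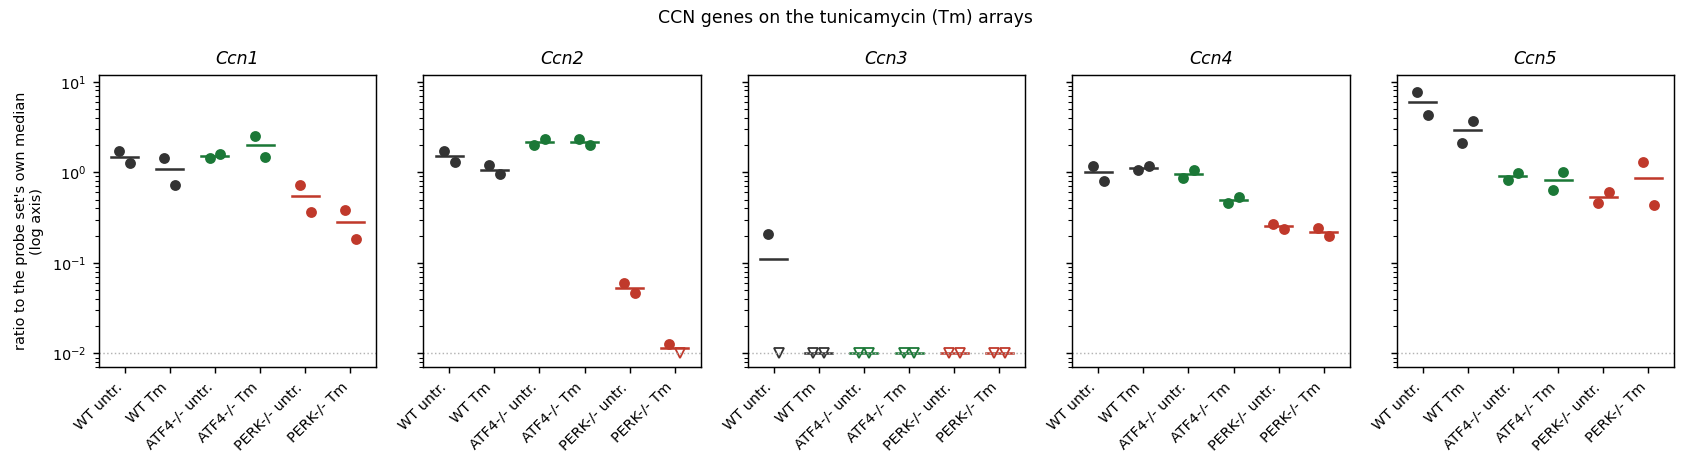
Ratio of each CCN gene to its own median (log axis) on the 12 tunicamycin (Tm) arrays. Each point is an array, each bar a group mean, and an open triangle a value at the floor of 0.01 (dotted line). Ccn2 lies below 0.06 on the 4 PERK-/- arrays and above 0.9 on the other 8, and Ccn3 is at the floor on 11 of 12.

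In untreated PERK-/- cells the transcripts of 4 CCN genes were lower than in untreated wild-type cells. Ccn2 fell 28.5-fold, Ccn5 11.3-fold, Ccn4 3.93-fold and Ccn1 2.73-fold. All 3 members of the fit over 24 arrays were called lower, against 3.34% of its probe sets. In the looser fit 4 of 4 members were called lower, against 3.51%.

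Ccn2, the profibrotic connective tissue growth factor, was at 1.71 and 1.30 in wild-type cells and at 0.0596 and 0.0460 in PERK-/- cells, both untreated. Both PERK-/- values lay far below both wild-type values and under the pseudocount, so the fold is rough. Ccn2 fell by 2.54 ± 0.20 on the log2 scale (limma adjusted p = 1.82e-05), and it was called with any 1 of the 4 arrays left out. The filter kept Ccn2 out of the fits of the tunicamycin arrays alone and of only the 4 arrays compared, so it did not meet those checks. The pseudocount also narrows the spread of its PERK-/- values on this scale. Ccn5, the member without the cystine knot, was at 7.69 and 4.29 in wild-type cells and at 0.454 and 0.608 in PERK-/- cells. The arrays did not overlap, although the wild-type values were themselves spread. Ccn5 fell by 2.95 ± 0.38 (limma adjusted p = 0.000302).

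Ccn4, an adhesion and survival factor for fibroblasts, was at 1.19 and 0.812 in wild-type cells and at 0.269 and 0.239 in PERK-/- cells. The PERK-/- arrays were close together and well below the wild-type arrays. Ccn4 fell by 1.30 ± 0.15 (limma adjusted p = 0.000137). Ccn4 and Ccn5 were called with any 1 of the 4 arrays left out. Ccn1, an integrin-binding angiogenic factor, was at 1.71 and 1.26 in wild-type cells and at 0.724 and 0.363 in PERK-/- cells. Both PERK-/- arrays were below both wild-type arrays, and replicate 1 was the nearer to wild type. Ccn1 fell by 1.16 ± 0.30 (limma adjusted p = 0.0344). This call was lost without wild-type replicate 1 (adjusted p = 0.172), wild-type replicate 2 (0.056) or PERK-/- replicate 2 (0.237), with no filter (0.0507) and in the fit of the tunicamycin arrays alone (0.156). In a fit of only the 4 arrays compared, none of the 3 was called (adjusted p 0.235 for Ccn1, 0.153 for Ccn4 and 0.0816 for Ccn5).

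Other genes differed between these lines as well. Of 8 fibroblast markers tested, 4 fell, and the summed ratio of the 10 markers was 11.3 to 12.1 on the untreated PERK-/- arrays against 21.8 to 25.8 on the wild-type arrays. Such sums, here and below, weigh genes with large ratios most and do not measure how abundant the markers are. Of 4 smooth muscle markers tested, 3 fell, with a summed ratio over 5 markers of 2.9 to 3.0 against 9.11 to 35.5. Summed blood markers (4.12 to 4.30 against 8.35 to 10.7) and endothelial markers (3.25 to 8.12 against 8.24 to 14.2) were also lower without overlap, with none of the 4 of them tested called, and epithelial markers overlapped. The part of cell state or composition in the CCN differences was not tested. In bulk RNA, fewer cells of a type and less RNA per cell cannot be told apart.

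Untreated ATF4-/- cells differed from wild-type cells in 1 of the 3 members tested, against 0.556% of probe sets called lower. Ccn5 was at 0.813 and 0.993 on the ATF4-/- arrays, below both wild-type arrays given above, and was 6.63-fold lower. The log2 difference was −2.39 ± 0.38 (limma adjusted p = 0.00603). The call was lost without ATF4-/- replicate 1 (adjusted p = 0.0501), in the fit of the tunicamycin arrays alone (0.113) and in a fit of only the 4 arrays compared (0.446). Ccn5 therefore lay below wild type in both knockout lines, and these comparisons share the wild-type arrays.

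The other members did not pass the test in untreated ATF4-/- cells. Ccn1 was at 1.45 and 1.59, between the wild-type arrays, with a log2 difference of 0.04 (95% interval −0.59 to 0.67, limma adjusted p = 0.978). Ccn4 was at 0.869 and 1.07, also between them, with a log2 difference of −0.02 (−0.35 to 0.30, limma adjusted p = 0.975). Ccn2 was at 2.00 and 2.35, above both wild-type arrays, with a log2 difference of 0.48 ± 0.20 (limma adjusted p = 0.401). The direction for Ccn1 and Ccn4 changed with the array left out.

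Tunicamycin called no CCN gene in wild-type cells (0 of 3 tested, against 2.81% of probe sets), although 1 of 3 had an unadjusted p under 0.05. That gene was Ccn5, which was at 2.12 and 3.70 in treated cells. Both values were below both untreated arrays, with a log2 difference of −0.97 ± 0.38 (limma adjusted p = 0.243). Ccn1 was at 1.44 and 0.725 in treated cells, which overlapped the untreated arrays, with a log2 difference of −0.42 (95% interval −1.05 to 0.21, limma adjusted p = 0.620). Ccn2 was at 1.19 and 0.949, below both untreated arrays, with a log2 difference of −0.41 (−0.84 to 0.03, limma adjusted p = 0.400 in the looser fit). Ccn4 was at 1.07 and 1.18 and overlapped the untreated arrays, with a log2 difference of 0.16 (−0.17 to 0.48, limma adjusted p = 0.769).

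In ATF4-/- cells tunicamycin lowered Ccn4, the 1 member called of 3 tested, against 0.271% of probe sets called lower. Ccn4 was at 0.460 and 0.539 in treated cells and at 0.869 and 1.07 in untreated cells. The arrays did not overlap, and the treated mean was 1.94-fold lower. Ccn4 fell by 0.70 ± 0.15 (limma adjusted p = 0.0373). Removing any 1 of the 4 arrays ended the call (adjusted p 0.0714 to 0.269), as did a fit without a filter (0.0576), of the tunicamycin arrays alone (0.207) or of only the 4 arrays compared (0.241). The difference from the wild-type response was −0.86 ± 0.22, which did not pass the test (limma adjusted p = 0.208, against 0.0543% of probe sets called for this difference).

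Ccn1 was at 2.51 and 1.48 in tunicamycin-treated ATF4-/- cells and overlapped the untreated arrays, with a log2 difference of 0.31 (95% interval −0.32 to 0.94, limma adjusted p = 0.769). Ccn2 was at 2.31 and 2.02, overlapping untreated cells, with a log2 difference of −0.00399 (−0.44 to 0.43, limma adjusted p = 0.997). Ccn5 was at 0.635 and 1.01, overlapping as well, with a log2 difference of −0.12 (−0.94 to 0.69, limma adjusted p = 0.949). The direction for these 3 genes changed with the array left out.

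In PERK-/- cells tunicamycin called no CCN gene (0 of 3 tested, 0 with an unadjusted p under 0.05, against 0.231% of probe sets). Ccn1 was at 0.385 and 0.185 in treated cells, overlapping the untreated arrays, with a log2 difference of −0.56 (95% interval −1.19 to 0.07, limma adjusted p = 0.618). Ccn2 was at 0.0127 on one treated array and at the floor on the other, below both untreated arrays, and its log2 difference was −0.21 ± 0.20 (limma adjusted p = 0.820). That difference is small on the log2 scale because all 4 values lie under the pseudocount.

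Ccn4 was at 0.245 and 0.196 in treated PERK-/- cells and overlapped the untreated arrays. Ccn5 was at 1.31 and 0.437 in treated cells, which straddled the untreated arrays. Its response minus that of wild-type cells was 1.39 ± 0.54, which did not pass the test (limma adjusted p = 0.373). None of the 3 members tested was called for this difference, against 0.461% of probe sets, and 1 of 3 had an unadjusted p under 0.05. Ccn3, a ligand linked to growth restraint, was at 0.208 on untreated wild-type replicate 1 and listed at the floor on the other 11 tunicamycin arrays.

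**Figure D2:**
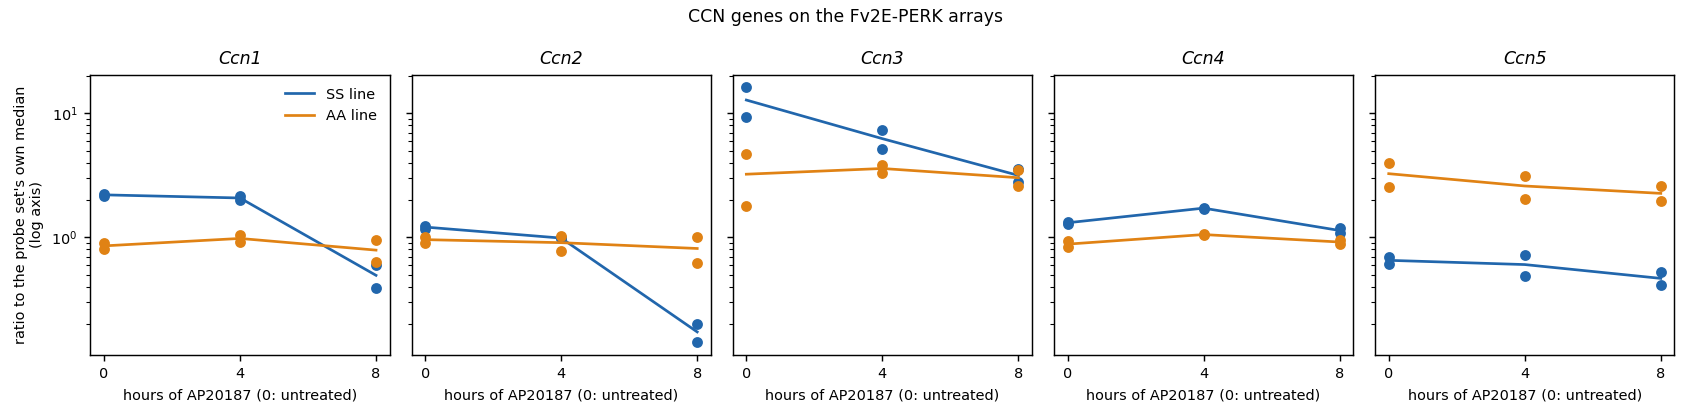
Ratio of each CCN gene to its own median (log axis) against hours of AP20187 on the Fv2E-PERK arrays. Points are arrays and lines join the means of 2 arrays, in the SS line (wild-type eIF2alpha) and the AA line (mutant eIF2alpha). In SS cells Ccn2 drops from 1.18 and 1.25 to 0.202 and 0.144 at 8 h, and AA values stay between 0.621 and 1.03.

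Activation of Fv2E-PERK in SS cells was followed by lower Ccn1, Ccn2 and Ccn3 at 8 h. Ccn2 was 7.0-fold, Ccn1 4.45-fold and Ccn3 4.05-fold lower than in untreated SS cells, and Ccn4 and Ccn5 did not pass the test. In the fit over 24 arrays 1 of 3 members was called, against 3.8% of probe sets called lower. In the fit of the Fv2E-PERK arrays 3 of 5 were called, against 2.63%.

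Ccn1 was at 2.24 and 2.17 in untreated SS cells, at 2.00 and 2.17 at 4 h, and at 0.599 and 0.391 at 8 h. The 4 h arrays stayed near the untreated level, and both 8 h arrays lay far below. Ccn1 fell by 1.74 ± 0.30 at 8 h against untreated cells (limma adjusted p = 0.00144), and was called with any 1 of the 4 arrays left out (adjusted p 0.00650 to 0.0308).

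Ccn2 was at 1.18 and 1.25 in untreated SS cells, at 0.986 and 0.991 at 4 h, and at 0.202 and 0.144 at 8 h. The groups at 4 h and 8 h were each below the group before them, with the larger drop after 4 h. Ccn2 fell by 1.80 ± 0.21 at 8 h (limma adjusted p = 0.00263), and was called with any 1 of the 4 arrays left out (0.0185 to 0.0304).

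Ccn3 was at 9.39 and 16.2 in untreated SS cells, at 5.20 and 7.31 at 4 h, and at 2.79 and 3.54 at 8 h. Each time point lay below the one before it with no shared range. Ccn3 fell by 1.90 ± 0.45 at 8 h (limma adjusted p = 0.0404). Removing any 1 of the 4 arrays ended the call (adjusted p 0.0686 to 0.166).

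Ccn4 was at 1.28 and 1.34 in untreated SS cells, at 1.74 and 1.71 at 4 h, and at 1.08 and 1.20 at 8 h. Its 4 h arrays were the highest of the line. The log2 difference was 0.34 ± 0.15 at 4 h (limma adjusted p = 0.210) and −0.17 ± 0.15 at 8 h (limma adjusted p = 0.562). Ccn5 was at 0.693 and 0.615 in untreated SS cells, at 0.720 and 0.489 at 4 h, and at 0.411 and 0.525 at 8 h. The 8 h arrays were below the untreated arrays, with a log2 difference of −0.34 (95% interval −1.15 to 0.47, limma adjusted p = 0.671).

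At 4 h no member was called in SS cells. The count was 0 of 3 in the fit over 24 arrays, against 8.98% of probe sets, and 0 of 5 on the Fv2E-PERK arrays alone, against 4.76%. In each fit 1 member, Ccn4, had an unadjusted p under 0.05. The log2 difference at 4 h was −0.08 for Ccn1 (95% interval −0.71 to 0.55, limma adjusted p = 0.927) and −0.24 for Ccn2 (−0.71 to 0.23, limma adjusted p = 0.582). Ccn3 was 2.05-fold lower at 4 h, with a log2 difference of −0.97 ± 0.45 (limma adjusted p = 0.272).

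Between 4 h and 8 h in SS cells Ccn1 fell by 1.66 ± 0.30 (limma adjusted p = 0.0127), the 1 member called of 3 against 0.651% of probe sets called lower. Ccn2 fell by 1.56 ± 0.21 (limma adjusted p = 0.0299), and 2 of 5 members were called on the Fv2E-PERK arrays alone against 0.323%. Neither call survived the removal of any 1 of the 4 arrays, at adjusted p 0.0521 to 0.173 for Ccn1 and 0.113 to 0.218 for Ccn2, and the Ccn1 call ended after quantile normalization (0.0841). Ccn4 was 1.51-fold lower at 8 h than at 4 h, with a log2 difference of −0.51 ± 0.15 (limma adjusted p = 0.104).

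In AA cells AP20187 called no probe set at 4 h or 8 h, in either fit, so the background was 0% and 0 of 3 and 0 of 5 members were called. At an unadjusted p under 0.05 there were 168 probe sets at 4 h and 344 at 8 h of the 7369 tested, and no CCN gene was among them. Ccn1 was at 0.803 and 0.908 in untreated AA cells, at 1.05 and 0.914 at 4 h, and at 0.950 and 0.631 at 8 h. Its 8 h arrays straddled the untreated ones, with a log2 difference of −0.10 (95% interval −0.73 to 0.53, limma adjusted p = 1).

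Ccn2 was at 0.907 and 1.01 in untreated AA cells, at 1.03 and 0.782 at 4 h, and at 1.01 and 0.621 at 8 h. All 3 groups overlapped, and the 8 h log2 difference was −0.21 (95% interval −0.68 to 0.26, limma adjusted p = 0.851). Ccn3 was at 1.79 and 4.68 in untreated AA cells, at 3.34 and 3.86 at 4 h, and at 3.48 and 2.58 at 8 h. The untreated arrays enclosed all others, and the 8 h log2 difference was 0.04 (−0.99 to 1.06, limma adjusted p = 0.995).

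Ccn4 ranged from 0.834 to 1.07 over the 6 AA arrays, with a log2 difference of 0.04 at 8 h (95% interval −0.28 to 0.37). Ccn5 was at 2.57 and 3.96 in untreated AA cells, at 2.05 and 3.15 at 4 h, and at 1.96 and 2.58 at 8 h. Neighbouring groups overlapped, and the 8 h log2 difference was −0.47 (−1.28 to 0.35, limma adjusted p = 1).

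The 8 h responses of the lines were compared directly. For Ccn1 the SS response minus the AA response was −1.64 ± 0.42 on the log2 scale (limma adjusted p = 0.0341). It was the 1 member called of 3, against 1.22% of probe sets called lower. Untreated AA cells already had less Ccn1 than untreated SS cells, as given below, and that gap enters this difference. Ccn2 differed by −1.59 ± 0.29 (limma adjusted p = 0.0362), and 2 of 5 members were called on the Fv2E-PERK arrays alone, against 0.678%. The AA arrays at 8 h correlated least of all groups (0.675). The Ccn1 call stood without SS replicate 1 at 8 h and ended without any 1 of the other 7 arrays (adjusted p 0.0654 to 0.151). It also ended after quantile normalization (0.110), with no filter (0.0596) and with up to 6 floor values (0.0562). Ccn2 stayed called without either AA array at 8 h and ended without any 1 of the other 6 arrays (0.0825 to 0.137).

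The difference between the lines was −1.93 ± 0.64 for Ccn3 at 8 h, which did not pass the test (limma adjusted p = 0.156). It was −0.22 ± 0.22 for Ccn4 (0.638) and 0.13 ± 0.54 for Ccn5 (0.934). At 4 h 0 of 3 and 0 of 5 members were called for the difference, with 0 at an unadjusted p under 0.05, against 1.29% and 0.484% of probe sets.

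The lines also differed before treatment. Ccn5 was 4.99-fold higher in untreated AA than in untreated SS cells, a log2 difference of 1.94 ± 0.38 (limma adjusted p = 0.00299). Ccn1 was 2.58-fold lower in AA cells, a log2 difference of −1.16 ± 0.30 (limma adjusted p = 0.0152). Ccn3 was 3.96-fold lower, a log2 difference of −1.99 ± 0.45 (limma adjusted p = 0.0240). In the fit over 24 arrays 2 of 3 members were called, against 14.7% of probe sets, and on the Fv2E-PERK arrays alone 3 of 5, against 12.5%.

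The Ccn5 call stood with any 1 of the 4 arrays left out, and the Ccn1 call ended without any 1 of them (adjusted p 0.0672 to 0.0952). The Ccn3 call was lost without SS replicate 2 (0.123) or AA replicate 1 (0.115). Ccn4 was 1.49-fold lower in AA cells and did not pass the test (log2 difference −0.47 ± 0.15, limma adjusted p = 0.0547). Ccn2 had a log2 difference of −0.27 (95% interval −0.74 to 0.19, limma adjusted p = 0.429). For Ccn1, whose untreated AA level was already low, the 8 h SS arrays at 0.599 and 0.391 lay below all 6 AA arrays. The nearest of these, AA replicate 2 at 8 h, was close at 0.631, in the group whose arrays correlated least.

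**Figure D3:**
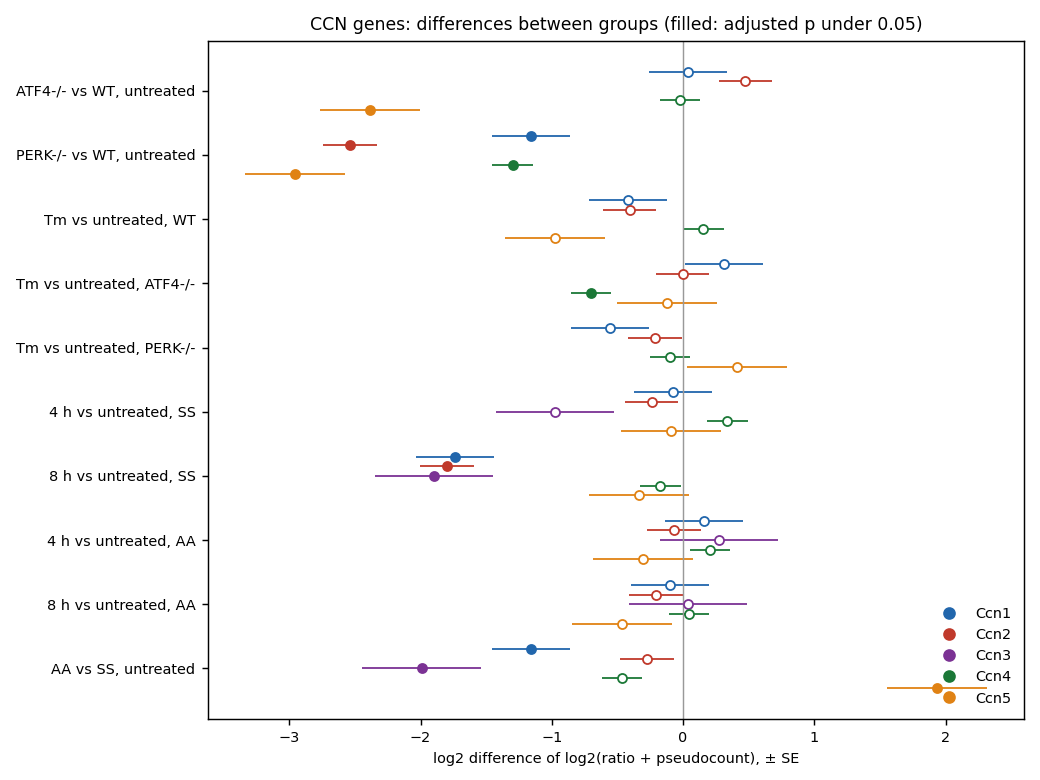
Log2 difference (of log2(ratio + 0.247)) ± SE for each CCN gene in 10 comparisons. Filled points have an adjusted p under 0.05. Ccn2 is from the looser fit for the tunicamycin arrays, Ccn2 and Ccn3 from the fit of the Fv2E-PERK arrays otherwise, and Ccn3 has no point for the tunicamycin arrays. Filled points lie left of 0 except Ccn5 in AA against SS cells.

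The genes ordered the groups differently. On the tunicamycin arrays Ccn2 was highest in ATF4-/- cells, then in untreated and treated wild-type cells, then in untreated and treated PERK-/- cells, and its untreated and treated ATF4-/- arrays were the 1 neighbouring pair that overlapped. Ccn1 followed the same genotype order, from a mean of 2.00 in treated ATF4-/- cells to 0.285 in treated PERK-/- cells. Every pair of neighbours overlapped except treated wild-type and untreated PERK-/- cells, whose nearest arrays were almost equal (0.7246 and 0.7242). Ccn4 ran from 1.13 in treated wild-type to 0.221 in treated PERK-/- cells, and its treated ATF4-/- arrays stood apart from both neighbours. Ccn5 was highest in untreated wild-type cells at a mean of 5.99, then 2.91 in treated wild-type cells, and all 4 knockout groups had means of 0.531 to 0.903.

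On the Fv2E-PERK arrays the highest group mean was 4.45 times the lowest for Ccn1, 7.0 times for Ccn2, 4.23 times for Ccn3, 1.95 times for Ccn4 and 6.98 times for Ccn5. SS cells at 8 h had the lowest mean for Ccn1, Ccn2 and Ccn5, and for Ccn5 they overlapped SS cells at 4 h. For Ccn3 they overlapped AA cells at 8 h, the lowest group. For Ccn4 the lowest group was untreated AA cells, which overlapped AA cells at 8 h. Ccn1 and Ccn2 correlated at 0.972 over the 6 group means of the tunicamycin arrays and at 0.754 over those of the Fv2E-PERK arrays. Ccn4 and Ccn5 correlated at 0.726 and −0.769 over the same means, which share arrays and scaling between genes.

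The genes whose group means were most like each member were found by Pearson correlation over 12 group means, each set of arrays centred on its own mean. For Ccn1 these were Ilk (0.937), which encodes integrin-linked kinase, Cttn (0.933), which encodes cortactin, and Vcl (0.913), which encodes vinculin. For Ccn2 they were the kinase gene Sgk1 (0.961), the collagen gene Col5a1 (0.956) and Tgfb1i1 (0.954), which encodes the focal adhesion protein Hic-5. For Ccn4 they were Ankrd11 (0.939), the collagen gene Col11a1 (0.929) and the transcription factor gene Klf13 (0.890, with only 0.403 within the Fv2E-PERK arrays). For Ccn5 they were the adenylate kinase gene Ak4 (0.940), Igfbp2 (0.929), which encodes an IGF-binding protein, and Lpl (0.926), which encodes lipoprotein lipase. For Ccn3, over the 6 group means of the Fv2E-PERK arrays, they were Kctd10 (0.997), Idh2 (0.981) and Hspb2 (0.981). Sgk1 had a group mean of 0.971 in untreated wild-type and 0.337 in untreated PERK-/- cells, and of 1.62 in untreated SS cells and 1.02 at 8 h. Ilk moved over a smaller range, from 1.03 to 0.801 and from 1.30 to 0.827 in the same pairs.

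The pathways around the CCN genes were followed by lists. In untreated PERK-/- against wild-type cells, where 3.34% of all probe sets were called lower and 1.66% higher, and the median log2 difference was 0.01, none of the 11 YAP, TEAD and Hippo components tested was called. Of 8 genes often used as YAP/TEAD readouts, 2 fell (median −0.42). They were F3, which encodes tissue factor (7.22-fold, limma adjusted p = 0.000641), and Amotl2, an angiomotin family gene (2.74-fold, 0.00398). Of 18 TGF-beta genes 3 fell (median −0.55), namely Tgfb1i1 (6.97-fold, 0.000150), Inhba, which encodes a subunit of activin A (3.66-fold, 0.00110), and the corepressor gene Tgif1 (1.82-fold, 0.0154).

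Of 13 genes for integrins and co-receptors of CCN proteins, 1 fell in PERK-/- cells (median −0.35). It was Itgav, the integrin alpha-v subunit (4.34-fold, limma adjusted p = 0.000445), and its other 2 probe sets were also called lower (0.0358 and 0.0419). Of 21 SRF and actin genes 6 fell and 1 rose (median −0.15), and those with the smallest p were the contractile genes Myl9 (8.73-fold), Acta2 (6.31-fold), Tagln (4.25-fold) and Cnn1 (6.77-fold). Of 10 other matricellular genes 4 fell (median −0.64), namely Postn (10.8-fold), Fbln2 (4.18-fold), Thbs2 (3.30-fold) and Sparc (2.60-fold). Of 11 Wnt genes Dkk3, of the Dickkopf family, fell 3.39-fold and the cyclin gene Ccnd1 rose 2.52-fold, while another Ccnd1 probe set was not called (log2 difference 0.64, limma adjusted p = 0.199). The fibroblast markers that fell were Col1a2 (10.2-fold), Col3a1 (7.49-fold), Pdgfrb (5.99-fold) and Col1a1 (3.57-fold), and another probe set of Col1a1 and of Col1a2 was not called.

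**Figure D4:**
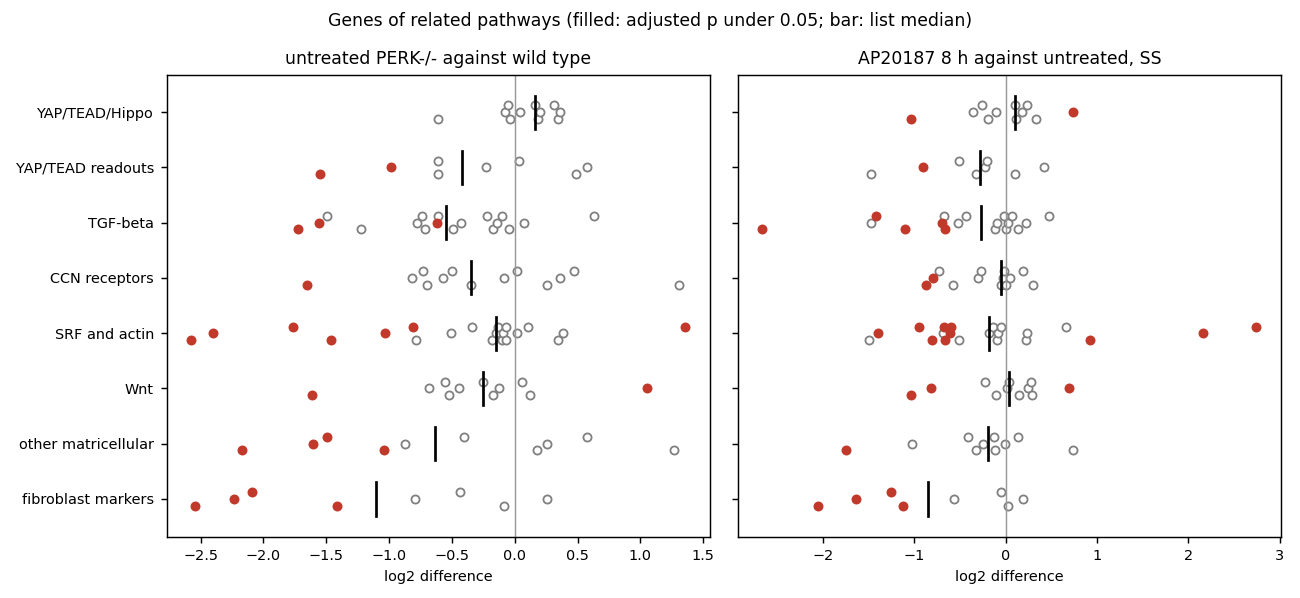
Log2 difference of each tested gene of 8 lists in untreated PERK-/- against wild-type cells (left) and in SS cells at 8 h of AP20187 against untreated (right). Filled points have an adjusted p under 0.05 and bars are list medians. The medians of the YAP, TEAD and Hippo components are 0.16 and 0.10, although Tead2 (−1.04) and Wwtr1 (0.73) are filled on the right, and the fibroblast markers have the lowest medians (−1.11 and −0.85).

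In SS cells at 8 h, where 3.8% of all probe sets were called lower and 8.63% higher with a median log2 difference of 0.07, 1 of 11 YAP, TEAD and Hippo components fell and 1 rose (median 0.10). Tead2, a TEAD transcription factor, fell 2.30-fold (limma adjusted p = 0.00306). Wwtr1, which encodes the YAP paralogue TAZ, rose 1.83-fold (0.0170), and its other probe set was not called. Of 8 YAP/TEAD readouts Amotl2 fell 2.17-fold (0.00363), with a list median of −0.28.

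Of 18 TGF-beta genes 5 fell in SS cells at 8 h (median −0.27). Those with the smallest p were Tgfbi, which encodes an adhesion protein of the matrix (7.99-fold, limma adjusted p = 0.00106), Inhba (3.35-fold, 0.00119), the inhibitory SMAD gene Smad6 (1.98-fold, 0.0167) and Id3, a helix-loop-helix inhibitor (1.81-fold, 0.0414). Of 13 CCN receptor genes, Fgfr1 fell 2.13-fold and the endocytic receptor gene Lrp1 fell 2.24-fold (median −0.05). Of 10 other matricellular genes Sparc fell 4.91-fold (median −0.19).

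Of 21 SRF and actin genes 7 fell and 3 rose in SS cells at 8 h (median −0.18). The immediate early genes Fos (8.09-fold) and Egr1 (5.57-fold) rose, and the actin-binding genes Cnn2 (2.23-fold) and Actn1 (3.81-fold) fell. At 4 h, when Ccn1 and Ccn2 were not called, Fos had risen 19.6-fold (limma adjusted p = 1.17e-08) and Egr1 7.25-fold (1.47e-05). Another probe set of Fos was not called at 4 h (log2 difference 0.20 ± 0.56), nor were the other 2 of Actn1 at 8 h. Of 11 Wnt genes, the receptor gene Fzd2 fell 3.48-fold, Ccnd1 fell 1.96-fold and the Dishevelled gene Dvl1 rose 1.78-fold (median 0.03). Another probe set of Ccnd1 was not called (log2 difference −0.67, limma adjusted p = 0.128).

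Fibroblast markers were lower in SS cells at 8 h too. Of 8 tested 4 fell, namely Col3a1 (7.14-fold), Col1a2 (5.55-fold), Col1a1 (3.45-fold) and Pdgfra (3.03-fold). Another probe set of each of the last 3 was not called. The summed ratio of the 10 markers was 9.67 to 10.99 in untreated SS cells and 4.14 to 4.39 at 8 h, and in AA cells it was 8.98 to 10.3 untreated and 9.17 to 11.9 at 8 h. Among markers of other cell types, the blood marker Cd14 fell 2.50-fold (limma adjusted p = 0.0330) and the smooth muscle marker Acta2 fell 1.90-fold (0.0203). Summed blood markers were at 1.98 to 2.30 in SS cells at 8 h against 2.92 to 3.16 untreated, without overlap, whereas smooth muscle and endothelial sums overlapped. Summed epithelial markers overlapped between untreated SS cells (66.2 to 118) and SS cells at 8 h (70.7 to 104). In untreated AA cells they summed to 15.7 to 16.6. The median ratio over the 5 epithelial markers went the other way between the untreated lines, at 0.844 in SS and 2.02 in AA cells. It was 0.714 in SS cells at 8 h, so few of the markers carry the SS sums. The part of these differences in the CCN results was not tested.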

How the data were processed

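The deposited values cover 12488 probe sets by 24 arrays. The ratio the authors deposited is linear and relative to each probe set's own median, as read from the values. The median over arrays was 1 within 0.01 for 91.5% of the 12488 probe sets, controls included. Image analysis, summarisation, scaling and centring: not given in the sources used here. After 66 controls were left out, 12422 probe sets remained and 10833 had 1 symbol. Groups came from the descriptions. Probe sets never at the floor of 0.01 (7369) were tested as log2(ratio + 0.247), where 0.247 is the overall median divided by 4, with limma 3.58.1 in R 4.3.3 (data.table version 1.17.8). The fit had 12 group means and a trended prior with 12 residual degrees of freedom, and tests were two-sided with Benjamini-Hochberg adjustment at 0.05. It was tested on simulated data with 1 spread per probe set for all arrays and no floor values, which cannot check unlike spreads between the sets. Alternatives covered pseudocount, filter, arrays fitted, scaling, replicate number and arrays left out. Named genes are every CCN gene, up to 4 called genes per list with the smallest p, the 3 most similar genes per member, and Atf4 and Eif2ak3. In each list 1 probe set stood for a gene. Members and lists were chosen with earlier results of these data known.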

Additional observations from a re-analysis of the deposited data

Results flagged for a closer look

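The response of Ccn1 to 8 h of AP20187 differed between the lines by a test of the difference itself. SS minus AA was −1.64 on the log2 scale, with 4.45-fold lower Ccn1 in SS cells and a ratio of treated to untreated means of 0.924 in AA cells. The same held for Ccn2 in the fit of the Fv2E-PERK arrays, where SS minus AA was −1.59 and the ratio of means was 0.849 in AA cells. For Ccn1 much of the difference lies in the untreated levels. Its mean log2 values were 1.29 in SS and 0.14 in AA cells untreated, and −0.44 and 0.04 at 8 h. For Ccn2 they were 0.55 and 0.27 untreated, and −1.26 and 0.06 at 8 h. Whether a lower untreated level limits the response of AA cells was not tested. Both treated SS arrays were below both untreated ones for both genes, and the AA arrays overlapped, which with 2 arrays per group is a description only. Neither call was stable. The Ccn1 call ended without any 1 of 7 of the 8 arrays (limma adjusted p 0.0654 to 0.151), after quantile normalization (0.110), with no filter (0.0596) and with up to 6 floor values (0.0562). The Ccn2 call ended without any 1 of 6 of the 8 arrays (limma adjusted p 0.0825 to 0.137).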

How the results depend on the processing

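Array number limits the precision: each group has 2 arrays. Replicate numbers repeat across groups, and same-numbered arrays deviated together weakly in 5 of 9 pairs of groups (correlation over 0.1, range over all pairs −0.00144 to 0.209). The labels do not say what such arrays share beyond the number. With replicate block, Ccn4 in tunicamycin-treated ATF4-/- cells had an adjusted p of 0.0454, and 0 of 45 member tests changed side (10 calls with and without). Counts of members called follow. Tunicamycin in ATF4-/- cells: 1, but 0 with no filter, in the fit of the set alone, in the fit of only the groups compared and with any 1 array left out (0 to 0). Untreated ATF4-/- cells: 1, but 0 in the set alone and in only the groups compared, and 0 to 1 with an array left out. Untreated PERK-/- cells: 3, but 0 in only the groups compared. SS at 8 h: 1, but 3 with no filter, 2 with up to 6 floor values and 3 in the set alone, which test 4 or 5 members. SS 8 h against 4 h: 1, but 2 with the pseudocount at the median, no filter, up to 6 floor values or the set alone, 0 after quantile normalization and 0 with any array left out. SS minus AA at 8 h: 1, but 2 in the set alone, 0 after quantile normalization and 0 to 1 with an array left out. Untreated AA against SS: 2, and 1 with any array left out. Where fewer samples or other members do not account for it, the cause was not tested. Reversals occurred only in uncalled values. Ccn4 under tunicamycin in PERK-/- cells was 0.00545 after quantile normalization. Ccn1, PERK-/- minus wild-type response, was 0.00983 with the pseudocount at the median and 0.0418 after quantile normalization. With an array left out, log2 ranges crossing 0 were Ccn4 under tunicamycin in wild-type cells −0.0636 to 0.37, Ccn1 in ATF4-/- cells −0.0278 to 0.65, Ccn5 there −0.38 to 0.13, Ccn5 in PERK-/- cells −0.18 to 1.01, Ccn1 PERK-/- minus wild-type response −0.53 to 0.26, Ccn1 in untreated ATF4-/- cells −0.15 to 0.23, Ccn4 there −0.24 to 0.19, Ccn5 in SS cells at 4 h −0.29 to 0.10, Ccn1 in AA cells at 8 h −0.33 to 0.12, Ccn4 there −0.0181 to 0.11, Ccn5 SS minus AA at 4 h −0.0795 to 0.50, and Ccn5 SS minus AA at 8 h −0.16 to 0.42. Leave-outs for Ccn2 and Ccn3, chosen after seeing the data, reversed Ccn2 under tunicamycin in ATF4-/- cells (0.0999 and 0.0812), Ccn2 in AA cells at 4 h (0.0862) and 8 h (0.0577), and Ccn3 in AA cells at 4 h (−0.36) and 8 h (−0.60 and −0.16).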
